A study of Mus musculus with 18 samples.

Results

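Ventricles of E14.5 mouse hearts that were labelled knockout for both Irx3 and Irx4 (DKO) were compared with ventricles labelled knockout for Irx3 alone (Irx3KO), to see what mutant Irx4 adds where Irx3 is already absent. The comparison used DKO replicates 2, 3 and 4 against Irx3KO replicates 1, 2 and 4, which are 6 of the 18 polyA RNA-seq libraries of the series. All 6 libraries therefore carry the Irx3 mutation. Of the other libraries, 3 were labelled Irx4KO (replicates 2, 3 and 4), 3 were heterozygous for both genes (double heterozygotes, replicates 2, 3 and 4), 3 were DKO replicates 5, 7 and 10, and 3 were wild type (WT). The labels give neither the part of each gene that the mutant alleles remove nor the strain. Nor do they tie libraries to embryos, and the spread behind the p-values is that among libraries, possibly technical in part or whole.

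Iroquois genes encode homeodomain transcription factors that bind DNA and mostly act as repressors. In the heart, Irx3 is known for fast conduction in the ventricular Purkinje system, where it acts on the connexin genes that build gap junctions. Irx4 is the family member restricted to ventricular muscle, and in chick it keeps an atrial myosin gene off in the ventricle.

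The 6 libraries held between 37878705 and 42877770 estimated counts. They belong to the same technical set of 12 libraries, called set 2 here, while DKO 5, 7 and 10 and WT form set 1. The labels do not name these sets, which differ in how counts trend with transcript length. Within set 2, Spearman's rho over 11253 genes between a library's deviation and transcript length was 0.0609, 0.342 and 0.168 in DKO 2, 3 and 4, against 0.465, 0.477 and 0.425 in Irx3KO 1, 2 and 4, so the groups did not overlap. The 4 Y-linked genes summed to 1.10 CPM (counts set to the same total in every library) in DKO 4, the lowest of the 6, and to between 96.7 and 171 CPM in the Irx3KO libraries. The embryo sex term used below was read from these counts, by a split at a Y-linked sum of 10 CPM. Among the 6 it sets DKO 4 alone apart, and elsewhere double heterozygote replicate 2 and WT 3 were low. The parts of length trend and embryo sex in single results were not tested beyond the fits given below that hold each of them.

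Irx3 was low in both groups. It was at 3.32, 3.82 and 3.83 CPM in DKO 2, 3 and 4, against 2.80, 3.11 and 2.58 CPM in Irx3KO 1, 2 and 4. The log2 fold change was 0.37 ± 0.13 (SE), with an adjusted p of 0.41. In set 2 libraries that keep Irx3, it averaged 24.9 ± 2.39 CPM in Irx4KO and 13.1 ± 0.257 CPM in double heterozygotes (SD, n = 3 each).

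Irx4 counts were higher, not lower, in the libraries labelled with the Irx4 mutation. Irx4 was at 237, 229.9 and 221 CPM in DKO 2, 3 and 4, against 135, 142 and 157 CPM in Irx3KO 1, 2 and 4. No DKO library overlapped the Irx3KO libraries, and the log2 fold change was 0.67 ± 0.14 (adjusted p = 0.045). Of the 2 annotated Irx4 transcripts, Irx4-202 carried 91.5% of the estimated counts in DKO on average and 86.7% in Irx3KO. Its share was 91.2%, 91.6% and 91.8% in DKO 2, 3 and 4, above the 84.0%, 85.9% and 89.8% of Irx3KO 1, 2 and 4. Without knowing which exons the allele removes, these counts check no genotype, and DKO stands here for libraries so labelled. The Irx4 call was lost without any 1 of the 6 libraries (adjusted p up to 0.227) and with embryo sex as a term.

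Over all 16607 genes tested, 63 passed an adjusted p of 0.05, which is 0.379% of the genes. Of these, 27 (0.163%) were higher in DKO and 36 (0.217%) were lower. Groups of 3 and 3 libraries failed to overlap for 17.4% of all genes, and for all 63 that passed. The median log2 fold change of all genes was 0.0043. The gene lists used below were chosen with earlier results of these data known. Counts of list members that passed are therefore descriptions, to be read beside the 0.379% of all genes. In these whole-ventricle samples, fewer cells of a type and less RNA per cell cannot be told apart.

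**Figure D1:**
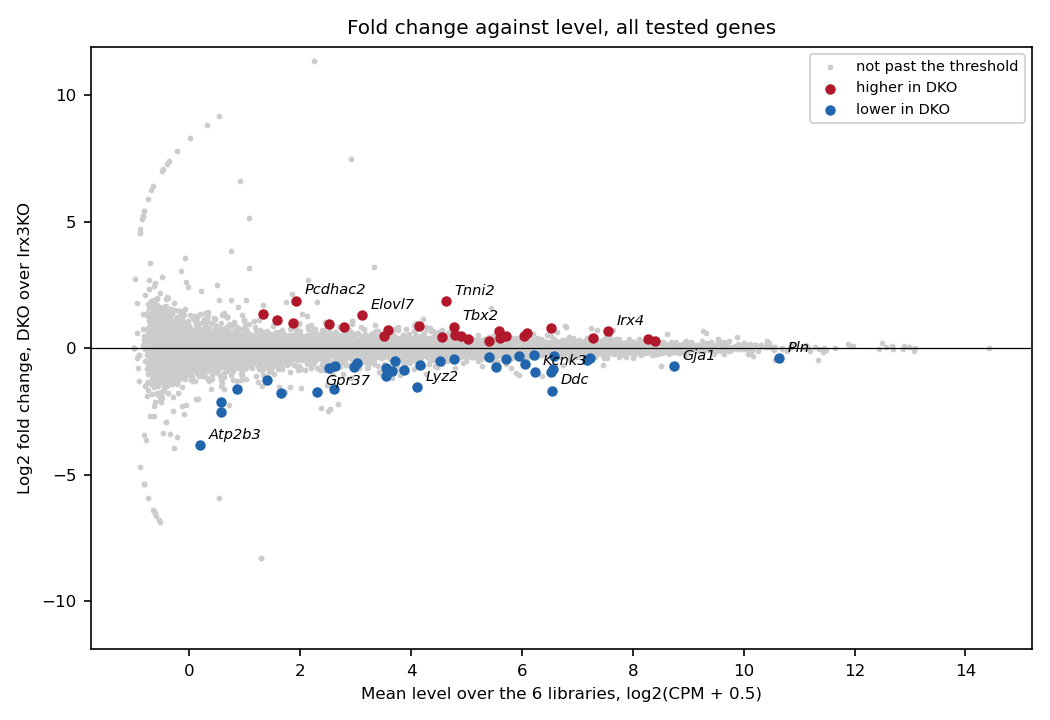
Each point is 1 of 16607 genes, with its mean level over the 6 libraries as log2(CPM + 0.5) on the x axis and its log2 fold change, DKO over Irx3KO, on the y axis. The 27 genes higher in DKO are red, the 36 genes lower in DKO are blue and named examples are labelled. Gja1 and Pln are among the abundant genes that fell.

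Promoter sequences were read for the genes that passed, because Iroquois factors bind a short palindrome, ACANNTGT, where N is any base. RefSeq promoter windows (GRCm38.p6, 250 bases before to 50 after a start) matched 44 of the 64 genes made up of the 63 that passed and Irx3. The palindrome stood in 3 of the 56 windows of these genes, 1 of Scn10a and 2 of Prss23, and in 2423 of all 32851 mouse windows (7.38%). The T-box motif TCACACCT, searched on both strands, stood in none of the 56 windows and in 1.28% of all windows. The windows printed are 2 of the 3 with a palindrome, capitals marking it, and that of Gja1, which held neither motif and is printed because the fall of Gja1 was among the most stable results. Scn10a lies at chr9:119718983-119719282 on the minus strand, the Prss23 window at chr7:89527138-89527437 on the minus strand is 1 of the 2 of that gene that hold the palindrome, and Gja1 lies at chr10:56377050-56377349 on the plus strand. A match is a description of these letters and is no evidence of binding.
Scn10a: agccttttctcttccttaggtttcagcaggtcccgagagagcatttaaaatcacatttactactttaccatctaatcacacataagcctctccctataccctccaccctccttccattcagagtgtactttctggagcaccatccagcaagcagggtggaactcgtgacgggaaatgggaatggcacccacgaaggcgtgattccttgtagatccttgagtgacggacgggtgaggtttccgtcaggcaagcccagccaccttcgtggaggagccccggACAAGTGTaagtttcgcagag
Prss23: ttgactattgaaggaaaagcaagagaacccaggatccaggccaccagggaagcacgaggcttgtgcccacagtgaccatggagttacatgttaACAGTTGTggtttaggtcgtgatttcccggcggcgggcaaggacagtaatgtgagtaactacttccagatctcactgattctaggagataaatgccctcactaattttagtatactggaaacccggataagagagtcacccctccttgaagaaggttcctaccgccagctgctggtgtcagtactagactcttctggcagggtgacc
Gja1: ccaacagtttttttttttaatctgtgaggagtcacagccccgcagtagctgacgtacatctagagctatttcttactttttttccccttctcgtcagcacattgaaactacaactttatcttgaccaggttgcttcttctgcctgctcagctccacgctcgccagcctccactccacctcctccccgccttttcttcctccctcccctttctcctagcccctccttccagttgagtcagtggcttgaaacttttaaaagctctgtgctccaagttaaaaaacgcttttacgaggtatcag

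Among the genes of electrical coupling, Gja1 fell, and it was the only connexin to pass. Gja1 encodes connexin 43, the main gap junction protein of working ventricular muscle. It was at 304, 343 and 327 CPM in DKO 2, 3 and 4, against 505, 519.9 and 583 CPM in Irx3KO 1, 2 and 4. The highest DKO library was well below the lowest Irx3KO library, and Gja1 was 1.65-fold lower in DKO (log2 fold change -0.72 ± 0.086, adjusted p = 0.0015). The call held without each of the 6 libraries, with adjusted p up to 0.0096. The other 6 tested connexins did not pass, and the 7 together had a median log2 fold change of 0.11. Gjc1, the connexin 45 gene of early and nodal muscle, averaged 99.0 ± 5.45 CPM in DKO and 91.8 ± 3.83 CPM in Irx3KO, and Gjd3 averaged 1.23 ± 0.209 CPM in DKO and 0.831 ± 0.175 CPM in Irx3KO (SD, n = 3 each).

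Of 31 ion channel genes tested, 2 rose and 1 fell, and the list's median log2 fold change was 0.017. Kcnk3, a background potassium channel that holds the resting potential, was at 54.0, 45.3 and 54.3 CPM in DKO 2, 3 and 4, against 101, 102 and 89.2 CPM in Irx3KO 1, 2 and 4. It was 1.91-fold lower (-0.93 ± 0.12, adjusted p = 0.0025), and the groups were far apart. Kcnh7, of the same ERG family as the cardiac repolarising channel Kcnh2, was at 18.9, 21.4 and 26.2 CPM in DKO 2, 3 and 4, against 10.97, 12.7 and 12.8 CPM in Irx3KO 1, 2 and 4. Every DKO library exceeded every Irx3KO library, and Kcnh7 rose 1.83-fold (0.87 ± 0.14, adjusted p = 0.011). Scn10a, a sodium channel of sensory neurons whose locus is tied to cardiac conduction in human, was at 6.26, 7.64 and 6.73 CPM in DKO 2, 3 and 4, against 3.94, 3.55 and 3.21 CPM in Irx3KO 1, 2 and 4. The groups did not overlap and Scn10a rose 1.93-fold (0.95 ± 0.19, adjusted p = 0.035). Kcnk3 passed without each of the 6 libraries (adjusted p up to 0.025), Kcnh7 did not pass without DKO 4 or without Irx3KO 1 (up to 0.097), and Scn10a did not pass without any 1 of them (up to 0.198). Cacna1a, a neuronal calcium channel pore gene outside the list, fell by 0.51 ± 0.079 (adjusted p = 0.0080) and did not pass without DKO 4 or Irx3KO 4 (up to 0.0706).

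**Figure D2:**
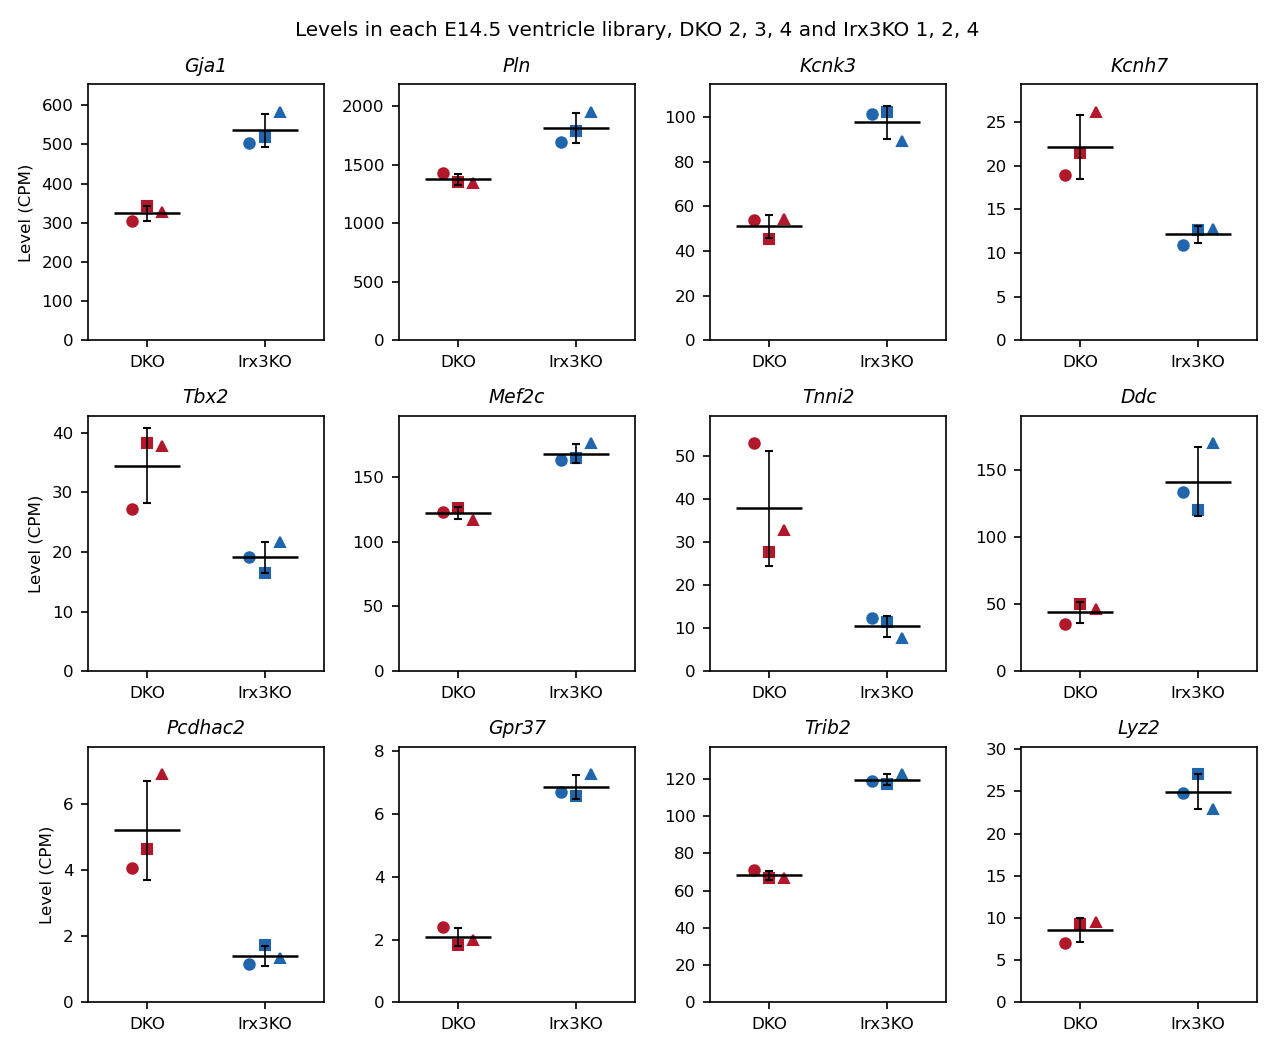
Levels in CPM on the y axis, starting at 0, in DKO 2, 3 and 4 (left, red) and Irx3KO 1, 2 and 4 (right, blue) for 12 genes that passed. Circles, squares and triangles are the libraries in that order, bars are means and error bars are SD, and for each of these genes the highest library of one group lies below the lowest of the other.

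Calcium handling genes that fell were Pln and Jph1, 2 of the 18 tested, and none rose. Pln encodes phospholamban, the inhibitor of the calcium pump of the sarcoplasmic reticulum. It was at 1426, 1353 and 1346 CPM in DKO 2, 3 and 4, against 1695, 1790 and 1951 CPM in Irx3KO 1, 2 and 4. All DKO libraries were below all Irx3KO libraries, and Pln was 1.32-fold lower (-0.40 ± 0.07, adjusted p = 0.016). Jph1, a junctophilin that ties the sarcoplasmic reticulum to the cell surface, was at 6.26, 6.08 and 5.85 CPM in DKO 2, 3 and 4, against 9.49, 8.48 and 9.52 CPM in Irx3KO 1, 2 and 4. It was 1.51-fold lower without overlap (-0.60 ± 0.12, adjusted p = 0.047). Fkbp1b, which binds the ryanodine receptor, averaged 5.02 ± 0.452 CPM in DKO and 3.85 ± 0.226 CPM in Irx3KO (SD, n = 3 each, adjusted p = 0.378). Pln did not pass without DKO 3, DKO 4, Irx3KO 2 or Irx3KO 4 (adjusted p up to 0.119), and Jph1 did not pass without any 1 of the 6 libraries (up to 0.214).

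All 5 T-box genes tested had a positive log2 fold change, and Tbx2 rose. Tbx2 encodes a repressor that keeps the atrioventricular canal free of chamber genes. It was at 27.2, 38.3 and 37.9 CPM in DKO 2, 3 and 4, against 19.1, 16.6 and 21.7 CPM in Irx3KO 1, 2 and 4. The groups did not overlap, with DKO 2 nearest to Irx3KO, and Tbx2 rose 1.80-fold (0.85 ± 0.14, adjusted p = 0.011). It did not pass without DKO 3, DKO 4, Irx3KO 1 or Irx3KO 2 (adjusted p up to 0.0753). Tbx5, an activator of chamber genes, averaged 67.5 ± 4.71 CPM in DKO and 55.4 ± 2.82 CPM in Irx3KO, and Tbx18 averaged 78.2 ± 1.27 CPM in DKO and 72.3 ± 1.18 CPM in Irx3KO (SD, n = 3 each). Neither passed, and the list's median was 0.20. With genotype as the only term, which pools the DKO libraries of both sets, 4 of the 5 were positive.

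Of 20 other cardiac transcription factor genes, Mef2c fell and the rest did not pass. Mef2c, an activator of muscle genes, was at 123, 126 and 117 CPM in DKO 2, 3 and 4, against 162, 164 and 176 CPM in Irx3KO 1, 2 and 4. The DKO libraries were all lower, by 1.37-fold on the fitted scale (-0.46 ± 0.096, adjusted p = 0.047), and the call was lost without any 1 of the 6 libraries (adjusted p up to 0.238). Gata6 averaged 211 ± 2.80 CPM in DKO and 179.9 ± 3.54 CPM in Irx3KO (adjusted p = 0.0811), and Hopx averaged 201 ± 8.78 CPM in DKO and 155 ± 32.8 CPM in Irx3KO (adjusted p = 0.371; SD, n = 3 each). Of 4 other Iroquois genes tested none passed. Irx2 averaged 19.1 ± 3.93 CPM in DKO and 27.8 ± 3.10 CPM in Irx3KO, and Irx1 averaged 26.1 ± 1.87 CPM in DKO and 31.7 ± 2.63 CPM in Irx3KO.

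Corticosteroid signalling was represented by 8 tested genes, of which 2 fell, while 0.217% of all genes fell. Nr3c2, the mineralocorticoid receptor, was at 6.67, 9.76 and 8.19 CPM in DKO 2, 3 and 4, against 12.9, 13.7 and 15.5 CPM in Irx3KO 1, 2 and 4 (-0.78 ± 0.16, adjusted p = 0.039). Tsc22d3, a glucocorticoid-induced leucine zipper gene, was at 85.3, 84.4 and 81.7 CPM in DKO 2, 3 and 4, against 104, 105 and 106 CPM in Irx3KO 1, 2 and 4 (-0.33 ± 0.061, adjusted p = 0.022). Neither gene's groups overlapped. Fkbp5, another glucocorticoid-induced gene, averaged 37.6 CPM in DKO and 34.7 CPM in Irx3KO (adjusted p = 0.706). Tsc22d3 did not pass without any 1 library (adjusted p up to 0.119), and Nr3c2 passed only without DKO 3 (up to 0.212).

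In the contractile apparatus, 1 of 34 sarcomere genes rose and none fell. Tnni2, the fast skeletal form of the inhibitory troponin subunit, was at 53.1, 27.8 and 32.9 CPM in DKO 2, 3 and 4, against 12.3, 11.4 and 7.68 CPM in Irx3KO 1, 2 and 4. All DKO libraries were above all Irx3KO libraries, with DKO 2 the highest, and Tnni2 rose 3.62-fold (1.86 ± 0.36, adjusted p = 0.046). It did not pass without any 1 of the 6 libraries (adjusted p up to 0.238). Tnnt3, the fast skeletal tropomyosin-binding troponin, averaged 2.46 ± 0.192 CPM in DKO and 1.58 ± 0.259 CPM in Irx3KO (adjusted p = 0.198), and Cmya5, a desmin-associated muscle gene, averaged 39.3 ± 6.88 CPM in DKO and 82.9 ± 8.13 CPM in Irx3KO (adjusted p = 0.129; SD, n = 3 each). Among 7 skeletal muscle markers Tnni2 alone passed, and their summed level was 212 to 398 CPM in DKO and 178 to 328 CPM in Irx3KO. Outside the lists, Cap2, an actin monomer-binding gene, rose by 0.29 ± 0.055 (adjusted p = 0.026). Fhod3, a formin that organises sarcomeric actin, fell by 0.41 ± 0.081 (adjusted p = 0.034), and Pdzrn3, a ubiquitin ligase of muscle differentiation, fell by 0.63 ± 0.12 (adjusted p = 0.022). Cap2 did not pass without any 1 library (up to 0.159), Fhod3 passed only without DKO 2 (up to 0.182), and Pdzrn3 only without DKO 2 (up to 0.142).

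Ddc, Gpr37, Plppr1 and Slit2, genes better known from neurons, fell. Ddc encodes aromatic L-amino acid decarboxylase, which makes dopamine and serotonin, and 1 of 14 genes of monoamine synthesis and transport fell. Ddc was at 35.5, 50.1 and 46.8 CPM in DKO 2, 3 and 4, against 134, 121 and 171 CPM in Irx3KO 1, 2 and 4. With no overlap it was 3.21-fold lower (-1.68 ± 0.26, adjusted p = 0.013), and it did not pass without DKO 2, DKO 4 or Irx3KO 4 (adjusted p up to 0.0746). Its transcript Ddc-202 took 74.4%, 70.5% and 80.4% of the gene's estimated counts in DKO 2, 3 and 4, against 83.5%, 85.8% and 86.3% in Irx3KO 1, 2 and 4, a description with no test. Maob, which breaks monoamines down, averaged 10.9 CPM in DKO and 13.3 CPM in Irx3KO (adjusted p = 0.356).

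Gpr37 and Plppr1 fell among 17 neurofilament and neuronal surface genes, and none rose. The median log2 fold change of the 17 was -0.079, with 7 positive and 10 negative. Of 10 tested markers of neural crest, neurons and Schwann cells none passed. Their median was 0.015, with 6 positive and 4 negative. Gpr37, an orphan receptor of brain, was at 2.39, 1.83 and 2.00 CPM in DKO 2, 3 and 4, against 6.72, 6.56 and 7.28 CPM in Irx3KO 1, 2 and 4. The groups were well separated, and Gpr37 was 3.31-fold lower (-1.72 ± 0.23, adjusted p = 0.0030). Plppr1, a membrane protein of growing neurites, was at 5.30, 5.83 and 5.29 CPM in DKO 2, 3 and 4, against 8.51, 8.27 and 10.7 CPM in Irx3KO 1, 2 and 4 (-0.74 ± 0.12, adjusted p = 0.011). Gpr37 passed without each of the 6 libraries (adjusted p up to 0.026), and Plppr1 did not pass without DKO 2, DKO 4 or Irx3KO 4 (up to 0.0862). Lgi3 averaged 3.73 CPM in DKO and 7.11 CPM in Irx3KO, just outside the threshold (adjusted p = 0.0524). Slit2, a repellent for growing axons and the single call among 27 axon guidance genes, was at 53.0, 67.0 and 65.9 CPM in DKO 2, 3 and 4, against 117, 141 and 102 CPM in Irx3KO 1, 2 and 4. It fell without overlap (-0.95 ± 0.18, adjusted p = 0.040), a call lost without any 1 library (up to 0.208).

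The protocadherin Pcdhac2, a cell surface adhesion gene of the alpha cluster, rose. It was at 4.06, 4.62 and 6.89 CPM in DKO 2, 3 and 4, against 1.16, 1.74 and 1.34 CPM in Irx3KO 1, 2 and 4. Every DKO library had more than every Irx3KO library, and the rise was 3.68-fold (1.88 ± 0.24, adjusted p = 0.0024), kept without each of the 6 libraries (adjusted p up to 0.027). Genes of this cluster share their last exons, so the split of counts among them is uncertain. The other 4 tested protocadherins did not pass, Pcdhgc3 averaging 221 CPM in DKO and 206 CPM in Irx3KO.

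Further neuronal genes were near the limit of these counts. Atp2b3, a plasma membrane calcium pump, had 0, 9 and 0 counts in DKO 2, 3 and 4, against 46, 62 and 35 counts in Irx3KO 1, 2 and 4 (adjusted p = 0.033). Amph, an endocytic adaptor of synapses, had 9, 17 and 6 counts in DKO 2, 3 and 4, against 63, 66 and 70 counts in Irx3KO 1, 2 and 4 (-2.51 ± 0.40, adjusted p = 0.0099). Trpc5, a cation channel, had 13, 8 and 18 counts in DKO 2, 3 and 4, against 84, 62 and 44 counts in Irx3KO 1, 2 and 4 (-2.14 ± 0.37, adjusted p = 0.016). All 3 genes were lower in every DKO library. Gria2, a glutamate receptor subunit, fell by 1.25 ± 0.23 (adjusted p = 0.021) and Nrn1, a neurite growth factor, rose by 1.34 ± 0.23 (adjusted p = 0.013). With 1 library left out, Atp2b3 passed only without DKO 3 (adjusted p up to 0.148), Trpc5 only without DKO 4 or Irx3KO 4 (up to 0.111), Amph was lost without DKO 2 or DKO 4 (up to 0.0738), Gria2 was lost without any but DKO 3 and Irx3KO 2 (up to 0.134), and Nrn1 was lost without DKO 4, Irx3KO 1 or Irx3KO 2 (up to 0.0982).

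Signalling genes moved in both directions. Trib2, a pseudokinase of the Tribbles family, had the smallest adjusted p of the 63 genes. It was at 71.1, 66.7 and 67.0 CPM in DKO 2, 3 and 4, against 119, 117 and 123 CPM in Irx3KO 1, 2 and 4, which is 1.75-fold lower (-0.81 ± 0.088, adjusted p = 8.5e-04). Gng2, a G-protein gamma subunit, was at 80.5, 90.5 and 74.5 CPM in DKO 2, 3 and 4, against 50.4, 52.9 and 57.8 CPM in Irx3KO 1, 2 and 4 (0.61 ± 0.081, adjusted p = 0.0030). Both held without each of the 6 libraries (adjusted p up to 0.0091 for Trib2 and 0.031 for Gng2), and neither gene's groups overlapped. With counts rebuilt from TPM, Gng2 did not pass (adjusted p = 0.142). Gnb3, a G-protein beta subunit, was at 8.18, 9.17 and 7.46 CPM in DKO 2, 3 and 4, against 4.89, 4.36 and 4.60 CPM in Irx3KO 1, 2 and 4 (0.84 ± 0.16, adjusted p = 0.030). Ramp1, a partner of the calcitonin-family receptors, was at 8.42, 8.85 and 7.85 CPM in DKO 2, 3 and 4, against 15.96, 12.8 and 18.5 CPM in Irx3KO 1, 2 and 4 (-0.91 ± 0.16, adjusted p = 0.016). Kalrn, an exchange factor for small GTPases, was at 34.9, 31.0 and 37.0 CPM in DKO 2, 3 and 4, against 57.5, 54.3 and 60.7 CPM in Irx3KO 1, 2 and 4 (-0.75 ± 0.12, adjusted p = 0.0080). In each of these 3 the groups stood apart. Gnb3 did not pass without any 1 library (up to 0.159), Ramp1 passed only without DKO 3 or Irx3KO 2 (up to 0.114), and Kalrn was lost without Irx3KO 4 (0.0502).

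Sfrp1, Thbs4, Igfbpl1, Prss23 and Lgals1 rose and Spock2 fell. Sfrp1, a secreted Wnt antagonist and the only call among 17 Wnt pathway genes, was at 329.5, 344 and 361 CPM in DKO 2, 3 and 4, against 274, 282 and 258 CPM in Irx3KO 1, 2 and 4 (0.35 ± 0.063, adjusted p = 0.021). The Wnt list had a median log2 fold change of 0.22, with 12 of 17 positive, and a median of 0.085 without DKO 4. Other Wnt antagonists did not pass, Wif1 at 2.68 CPM in DKO and 7.48 CPM in Irx3KO (adjusted p = 0.0726) and Sfrp5 at 1.58 CPM in DKO and 3.19 CPM in Irx3KO (adjusted p = 0.119). Thbs4, a matrix glycoprotein induced in loaded hearts, was at 104, 115 and 127 CPM in DKO 2, 3 and 4, against 65.3, 72.5 and 64.4 CPM in Irx3KO 1, 2 and 4 (0.77 ± 0.13, adjusted p = 0.014). Igfbpl1, of the insulin-like growth factor binding protein family, was at 59.1, 52.4 and 62.7 CPM in DKO 2, 3 and 4, against 36.3, 36.7 and 36.8 CPM in Irx3KO 1, 2 and 4 (0.67 ± 0.12, adjusted p = 0.021). Prss23, a serine protease, was at 30.4, 29.4 and 35.8 CPM in DKO 2, 3 and 4, against 23.4, 23.6 and 20.2 CPM in Irx3KO 1, 2 and 4 (0.51 ± 0.099, adjusted p = 0.032). None of these rises had overlapping libraries. Spock2, a proteoglycan, went the other way at 9.47, 13.4 and 7.43 CPM in DKO 2, 3 and 4, against 17.8, 17.0 and 20.2 CPM in Irx3KO 1, 2 and 4 (-0.86 ± 0.16, adjusted p = 0.026). Lgals1, which encodes the lectin galectin-1, rose 1.33-fold (0.41 ± 0.062, adjusted p = 0.0077) and passed without each of the 6 libraries (up to 0.044). Thbs4 was lost without DKO 4, Irx3KO 1 or Irx3KO 4 (up to 0.102), Sfrp1 passed only without DKO 2 (up to 0.142), Igfbpl1 only without DKO 3 (up to 0.111), Prss23 only without DKO 3 (up to 0.193), and Spock2 only without DKO 3 (up to 0.147).

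Among metabolic and other genes, Elovl7, a fatty acid elongase, was at 13.9, 12.3 and 8.64 CPM in DKO 2, 3 and 4, against 4.55, 4.23 and 5.26 CPM in Irx3KO 1, 2 and 4 (1.31 ± 0.24, adjusted p = 0.021). Nampt, which makes an NAD precursor, was at 72.5, 86.8 and 68.0 CPM in DKO 2, 3 and 4, against 56.7, 52.7 and 55.4 CPM in Irx3KO 1, 2 and 4 (0.46 ± 0.094, adjusted p = 0.039). Mrps27, a mitochondrial ribosome subunit, was at 66.5, 53.5 and 59.7 CPM in DKO 2, 3 and 4, against 43.5, 41.1 and 45.5 CPM in Irx3KO 1, 2 and 4 (0.47 ± 0.091, adjusted p = 0.032). Each of the 3 rose without overlap of the groups. Sel1l3 was at 14.2, 14.98 and 13.7 CPM in DKO 2, 3 and 4, against 9.99, 8.04 and 8.34 CPM in Irx3KO 1, 2 and 4 (0.70 ± 0.13, adjusted p = 0.026). Sgce, the imprinted gene for epsilon-sarcoglycan and the single call among 17 imprinted genes, was at 44.6, 46.1 and 46.4 CPM in DKO 2, 3 and 4, against 37.9, 38.0 and 37.2 CPM in Irx3KO 1, 2 and 4 (0.28 ± 0.052, adjusted p = 0.025). Their libraries did not overlap either. Pla2g5, a secreted phospholipase, rose by 1.11 ± 0.18 (adjusted p = 0.011), Grb14, an adaptor that dampens insulin receptor signalling, by 0.42 ± 0.065 (adjusted p = 0.0080), and Pirt, a regulator of sensory ion channels, by 0.46 ± 0.066 (adjusted p = 0.0046). Pirt passed without each of the 6 libraries (up to 0.036) and Grb14 was lost without Irx3KO 1 (0.0515). Pla2g5 was lost without DKO 2 or Irx3KO 2 (up to 0.0671), Elovl7 passed only without DKO 4 (up to 0.131), Mrps27 only without DKO 3 (up to 0.188), Sel1l3 only without Irx3KO 1 (up to 0.159), and Nampt and Sgce were lost without any 1 library (up to 0.194 and 0.142).

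Other falls included Gtsf1, a germ-line small RNA pathway gene, at 2.33, 2.47 and 3.46 CPM in DKO 2, 3 and 4, against 7.53, 10.97 and 6.85 CPM in Irx3KO 1, 2 and 4 (-1.61 ± 0.24, adjusted p = 0.0077). Megf10, a receptor for the uptake of dying cells that also acts in muscle precursors, was at 7.27, 7.80 and 6.39 CPM in DKO 2, 3 and 4, against 13.9, 14.8 and 17.0 CPM in Irx3KO 1, 2 and 4 (-1.09 ± 0.18, adjusted p = 0.011). Adgrv1, a large adhesion receptor of hair cells, was at 3.54, 3.68 and 4.19 CPM in DKO 2, 3 and 4, against 6.22, 7.003 and 6.72 CPM in Irx3KO 1, 2 and 4 (-0.80 ± 0.16, adjusted p = 0.035). The DKO libraries of all 3 lay below the Irx3KO libraries. Gtsf1 passed without each of the 6 libraries (adjusted p up to 0.045), Megf10 was lost without DKO 4 or Irx3KO 4 (up to 0.0738), and Adgrv1 without any 1 of them (up to 0.188). The remaining falls were Fam69c (-1.61), Mccc1os (-0.72), Zfp729a (-0.67), Il1rap (-0.52), Nup210 (-0.45), Lrp4 (-0.44), Ears2 (-0.37), Pald1 (-0.31) and Arhgap23 (-0.29), in log2 fold change with adjusted p between 0.0078 and 0.0488. The remaining rises were Asb12 (0.98), Mycbpap (0.46), Dapp1 (0.44) and Ppp1r13l (0.37), with adjusted p between 0.022 and 0.045. Zfp729a belongs to a zinc finger family with near-identical members, and Mccc1os lies opposite another gene while the strand setting of the counting is not given, so both are uncertain. Of these 13, Nup210 was lost without 1 library, DKO 4 (0.0635), and with counts rebuilt from TPM (0.431), and the other 12 were lost without 4 or more of the 6 libraries in turn (up to 0.247).

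The lysozyme genes Lyz1 and Lyz2 fell among 13 macrophage and leukocyte markers. Lyz2 was at 6.997, 9.25 and 9.48 CPM in DKO 2, 3 and 4, against 24.8, 27.1 and 23.0 CPM in Irx3KO 1, 2 and 4 (-1.54 ± 0.30, adjusted p = 0.045). Lyz1 was at 0.906, 1.08 and 1.60 CPM in DKO 2, 3 and 4, against 4.03, 4.28 and 4.04 CPM in Irx3KO 1, 2 and 4 (-1.78 ± 0.26, adjusted p = 0.0046). Lyz2 was 2.91-fold and Lyz1 3.44-fold lower, with no overlap. The genes are near-identical, so the split of counts between them is uncertain. The other 11 markers, Csf1r and the complement genes C1qa and C1qb among them, did not pass, and Mrc1 averaged 31.5 CPM in DKO and 27.5 CPM in Irx3KO. The list's median log2 fold change was -0.030 and its summed level ran from 108 to 115 CPM in DKO and from 118 to 136 CPM in Irx3KO. The part of macrophage number in the lysozyme values was not tested. Lyz1 passed without each of the 6 libraries (adjusted p up to 0.032) and Lyz2 was lost without any 1 of them (up to 0.231).

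Markers of other cells that a dissected ventricle could hold were measured beside these genes. The 13 atrial markers had a median log2 fold change of 0.29 with 10 positive, and none passed. The members ran from -0.29 to 0.94. Their summed level was 3350 to 3560 CPM in DKO and 2679 to 2749 CPM in Irx3KO, so the sums did not overlap. Abundant genes weigh most in such sums. Nppa, also on the trabecular list below, averaged 1091 CPM in DKO and 797 CPM in Irx3KO. Stard10 averaged 23.9 ± 2.50 CPM in DKO and 13.6 ± 0.896 CPM in Irx3KO (adjusted p = 0.0719), and Mybphl averaged 9.35 CPM in DKO and 4.88 CPM in Irx3KO (adjusted p = 0.198; SD, n = 3 each). Sln, which encodes sarcolipin of atrial muscle, averaged 3.74 CPM in DKO and 3.75 CPM in Irx3KO. The 8 ventricular muscle markers summed to 26060 to 29780 CPM in DKO and 26590 to 29850 CPM in Irx3KO, with a median log2 fold change of 0.017, and Pln was the only one to pass. The part of atrial tissue in the changes given above was not tested. The 12 erythroid markers had a median of -0.43 and sums of 4356 to 6486 CPM in DKO and 6392 to 8143 CPM in Irx3KO, with 10 negative and none past the threshold. Without DKO 2 the erythroid median was -0.21.

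**Figure D3:**
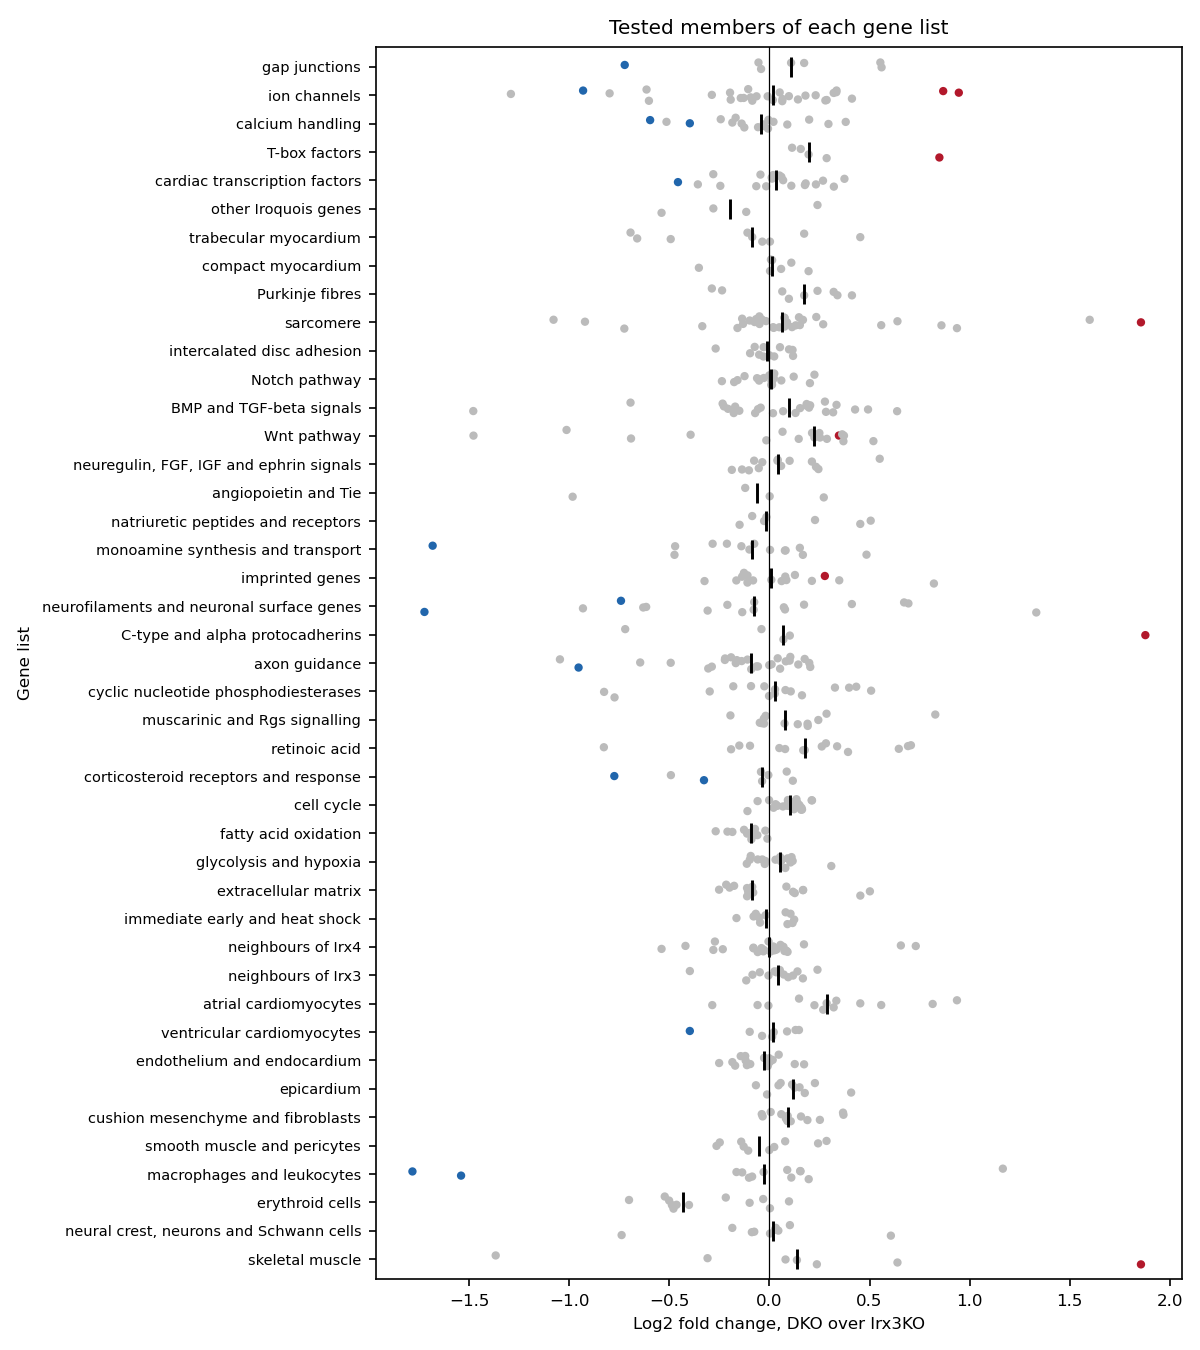
Each row is a gene list and each point a tested member, with its log2 fold change (DKO over Irx3KO) on the x axis. Black bars are list medians, red points rose, blue points fell and grey points did not pass. The erythroid median lies left of 0 (-0.43) and the atrial median right of it (0.29), with members of both lists on each side and none past the threshold.

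No gene passed among the tested markers of trabecular muscle (9), compact muscle (7) or Purkinje fibres (9), the layers and fibres of the ventricular wall. Of the trabecular genes, Cited1 averaged 82.8 ± 12.7 CPM in DKO and 131 ± 9.10 CPM in Irx3KO (adjusted p = 0.126), Bmp10 averaged 29.4 ± 7.52 CPM in DKO and 47.7 ± 6.09 CPM in Irx3KO (adjusted p = 0.352), and Nppa averaged 1091 ± 189 CPM in DKO and 797 ± 42.3 CPM in Irx3KO (adjusted p = 0.528; SD, n = 3 each). The 3 genes thus pointed in different directions. Of the compact wall genes, Mycn averaged 124 ± 17.3 CPM in DKO and 159 ± 11.2 CPM in Irx3KO (adjusted p = 0.224). Intercalated disc adhesion genes (12), Notch genes (20), BMP and TGF-beta genes (26), endothelial and endocardial genes (17), epicardial genes (10), extracellular matrix genes (17) and cell cycle genes (21) also gave no call. In the BMP list, Bmp5 averaged 30.9 ± 6.33 CPM in DKO and 19.9 ± 2.31 CPM in Irx3KO (adjusted p = 0.118). All 13 fatty acid oxidation genes had a negative log2 fold change, with a median of -0.091 and no call. Without DKO 4 or Irx3KO 4, 8 and 9 of the 13 were negative.

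The genes that passed were then read in contrasts of other libraries. Those libraries had entered the same fit and shared its filter, scaling and spread. Passing in both contrasts is therefore not independent of how the genes were chosen. DKO 5, 7 and 10 against WT 1, 2 and 3 shares no library with the comparison above, although here Irx3 is lost as well as Irx4. All 63 genes had the same sign in these libraries, while 62.0% of all 16607 genes did. Of the 63, 41 (65.1%) also passed there with the same sign, which is 17.2% of the 239 genes that passed in that comparison (1.44% of the genes tested). The median log2 fold change was 0.39 for the 27 rises and -0.64 for the 36 falls. Gja1 was at 361, 340 and 407 CPM in DKO 5, 7 and 10, against 593, 580 and 475 CPM in WT 1, 2 and 3 (-0.57 ± 0.086, adjusted p = 0.0029). Pcdhac2 rose by 1.73 ± 0.23 (adjusted p = 0.0017), Tnni2 by 2.17 ± 0.36 (adjusted p = 0.011) and Tbx2 by 0.96 ± 0.14 (adjusted p = 0.0023). Lyz1 fell by 2.51 ± 0.26 (adjusted p = 1.0e-04) and Gpr37 fell by 1.80 ± 0.24 (adjusted p = 0.0017). Values near 0 were seen for Cacna1a (-0.05), Arhgap23 (-0.09) and Mef2c (-0.10), and Elovl7 was at 0.27 (adjusted p = 0.674), against 1.31 in DKO over Irx3KO. The difference between these values was not tested.

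**Figure D4:**
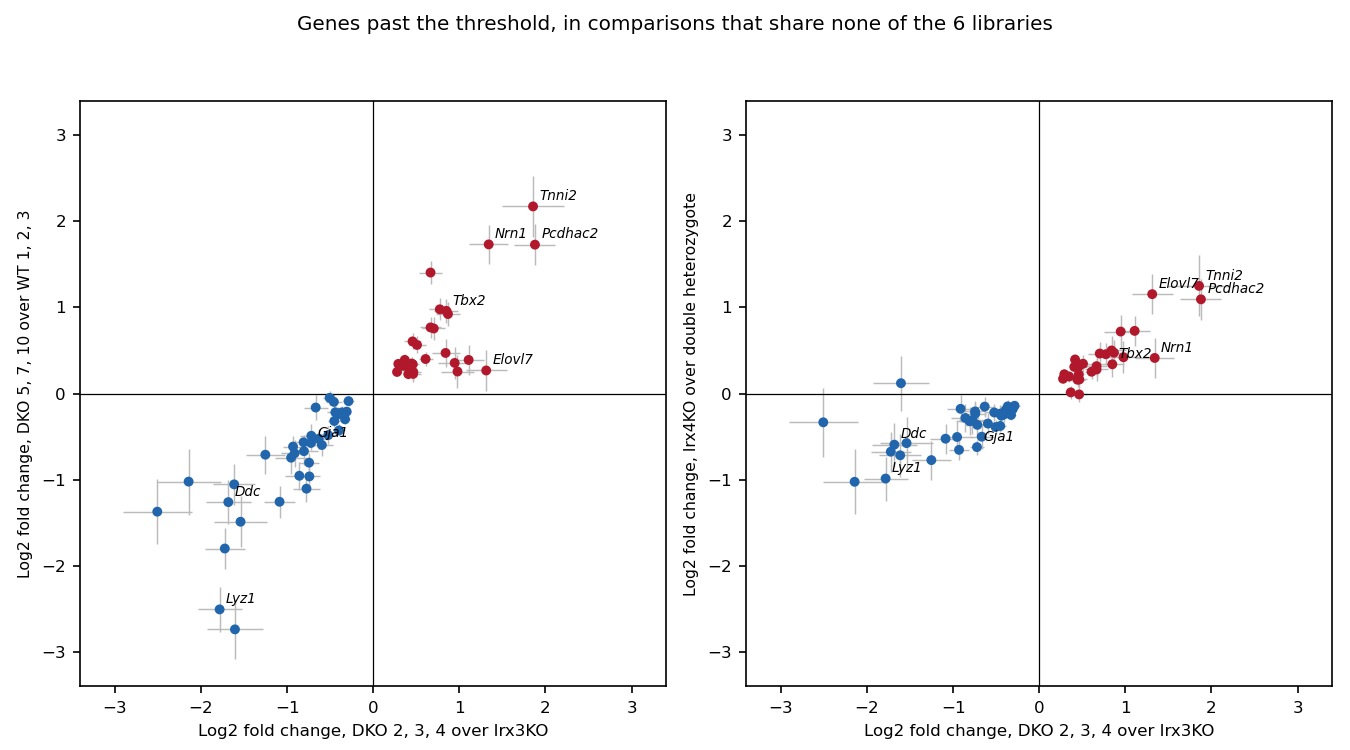
Log2 fold changes of 62 genes that passed (all but Atp2b3, which is near 0 counts) in DKO 2, 3 and 4 over Irx3KO on the x axis, against DKO 5, 7 and 10 over WT (left) and Irx4KO over double heterozygotes (right) on the y axes. Bars are SE, red genes rose and blue genes fell in DKO over Irx3KO, and nearly all points lie in the quadrants of equal sign.

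Another pair of groups outside the 6 libraries, Irx4KO against double heterozygotes, sets a homozygous Irx4 label against a heterozygous one, with Irx3 unmutated in Irx4KO and heterozygous in its partner. Of the 63 genes, 61 had the same sign (60.4% of all genes did), with a median of 0.34 for the rises and -0.33 for the falls. Only 2 genes passed in that comparison (0.012%), Gja1 (-0.62, adjusted p = 0.011) and Irx3 (0.93, adjusted p = 0.0098), and 931 had an unadjusted p under 0.05. So 1 of the 63, Gja1, was called in both.

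Levels across the 4 genotypes of set 2 placed several genes of DKO close to Irx4KO. Gja1 averaged 325 ± 19.4 CPM in DKO, 322 CPM in Irx4KO, 496 CPM in double heterozygotes and 536 ± 41.5 CPM in Irx3KO. Kcnk3 averaged 51.2 CPM in DKO, 49.9 CPM in Irx4KO, 78.4 CPM in double heterozygotes and 97.6 CPM in Irx3KO. For these genes DKO and Irx4KO overlapped, while both lay below double heterozygotes and Irx3KO. Trib2 stepped through the genotypes without overlap, at 68.3 CPM in DKO, 81.2 CPM in Irx4KO, 101 CPM in double heterozygotes and 119.6 CPM in Irx3KO. Tbx2 differed from this, at 34.5 CPM in DKO, 21.1 CPM in Irx4KO, 16.7 CPM in double heterozygotes and 19.1 CPM in Irx3KO, with the Irx4KO libraries (20.5 to 21.8 CPM) inside the range of Irx3KO or just beyond it (16.6 to 21.7 CPM). Over the 63 genes, the Irx4KO mean was nearer to DKO for 57 and nearer to Irx3KO for 6, which were Pdzrn3, Pln, Ears2, Nampt, Tbx2 and Kcnh7. The double heterozygote mean was nearer to Irx3KO for 49. The genes were chosen for lying apart in DKO and Irx3KO, so these counts are descriptions.

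**Figure D5:**
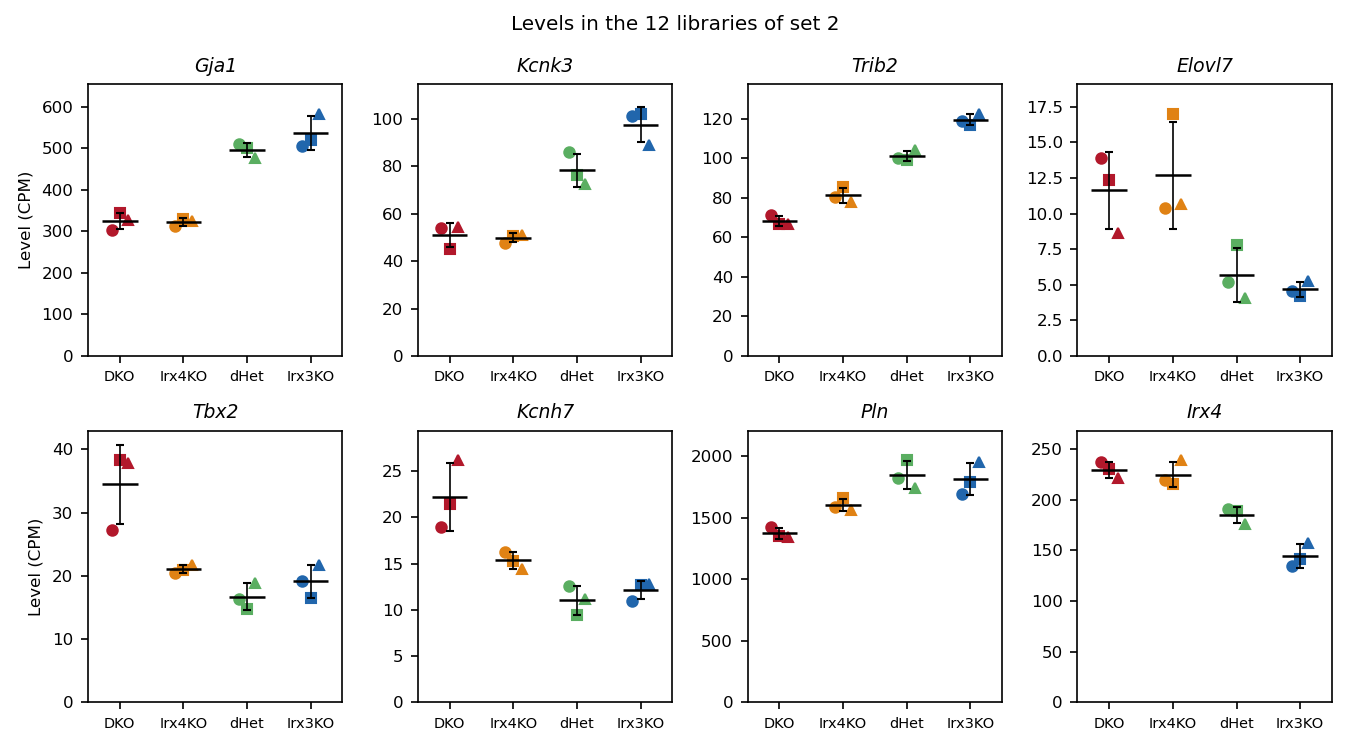
Levels in CPM on the y axis, starting at 0, of 8 genes in the 12 libraries of set 2, from left to right DKO, Irx4KO, double heterozygotes (dHet) and Irx3KO, with means as bars and SD as error bars. Gja1 and Kcnk3 overlap between DKO and Irx4KO, while every DKO library has more Tbx2 than any of the other 9 libraries.

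Whether the effect of mutant Irx4 differs with Irx3 absent was tested by subtracting the effect in Irx4KO over WT from the effect in DKO over Irx3KO. The Irx4KO over WT effect joins the library sets through both groups of DKO libraries. No gene passed in edgeR's quasi-likelihood test, while 563 had an unadjusted p under 0.05, and DESeq2 called 11 genes and limma-voom called 3. The difference was 0.60 ± 0.28 for Tbx2 and 0.48 ± 0.28 for Kcnh7. For both, as for the other genes named, a difference between the effects was therefore not shown in edgeR's test. That does not make the effects equal.

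The count of 63 depended on each library. Without DKO 2, DKO 3 or DKO 4 it was 27, 41 and 15, and without Irx3KO 1, 2 or 4 it was 20, 24 and 19. With embryo sex as a term 36 genes passed, 34 of them among the 63, and the calls lost included Irx4, Scn10a, Jph1, Mef2c, Nr3c2, Tsc22d3, Tnni2, Lyz2 and Slit2. With each library's length trend removed 72 passed, 57 of them among the 63. With counts rebuilt from TPM 31 passed, 27 of them among the 63, and the calls lost included Irx4, Kcnh7, Scn10a, Cacna1a, Jph1, Mef2c, Nr3c2, Tnni2, Lyz2, Slit2 and Elovl7. Of the 63, 9 passed under each of the 18 alternatives tried, namely Lyz1, Gpr37, Gtsf1, Kcnk3, Trib2, Gja1, Lgals1, Pirt and Pcdhac2. None of the 63 changed sign under any of them.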

How the data were processed

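The authors deposited kallisto tables of estimated counts per transcript for each library, per the file headers, with kallisto 0.42.2 and mm9 named in the submitters' processing notes. Not given in the sources used here are the transcript release and the strand setting. The deposited TPM values, scaled by length and library total per the file headers, served to rebuild counts in 1 alternative and gave no level. Of 88943 transcripts, 78030 (87.73%) matched GENCODE M21 (GRCm38) identifiers, giving 28563 genes. Unmatched transcripts held 6.47% to 6.66% of the counts of the 6 compared libraries. Totals of 37878705 or more limit precision only for genes near 1 CPM, and the values cover counting error and library spread alike.

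Estimated counts were summed per gene and rounded. All 18 libraries entered 1 fit with 6 groups (WT, Irx3KO, Irx4KO, double heterozygotes, DKO 5, 7, 10 and DKO 2, 3, 4), so that the spread is shared over 12 residual degrees of freedom. The test was edgeR 4.0.16's robust quasi-likelihood F test in R 4.3.3, with TMM, filterByExpr, a prior count of 0.125 and Benjamini-Hochberg adjustment over 16607 genes at 0.05 (common dispersion 0.0207). All adjusted p-values come from it unless another tool is named. "Rose", "fell" and "passed" refer to this threshold. CPM use TMM factors, and a standard error is the log2 fold change over the square root of F. The code was tested on simulated data.

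Alternatives were DESeq2 1.42.0, limma 3.58.1 (voom with quality weights), RLE size factors, no count filter, a filter of 1 CPM in 3 libraries, the compared libraries only, the 12 libraries of set 2, genotype as the only term, counts rebuilt from TPM, length trends removed, embryo sex as a term, a replicate block, and each library left out. Genotype as the only term pools the DKO libraries of both sets. Members and lists were chosen with earlier results of these data known. Named are Irx3, Irx4, the genes past the threshold with a descriptive symbol and at least 1 CPM in a group, and up to 3 members a list by p. Values in every library are given for up to 15 rises and 15 falls with at least 5 CPM and for list members past the threshold. Pairs of libraries of 1 group differed by more than sampling noise (chi-square per gene at least 6.31).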

Additional observations from a re-analysis of the deposited data

How the results depend on the processing

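Against 63 genes (27 higher, 36 lower in DKO), DESeq2 called 199 (92, 107), limma-voom 253 (134, 119), the compared libraries alone 108 (55 higher, 53 lower), the 12 libraries of set 2 gave 179 (84, 95), genotype as the only term 284 (145, 139), and counts rebuilt from TPM 31 (14, 17). With embryo sex as a term 36 passed, 18 of them lower. RLE factors (66), no filter (55), a filter of 1 CPM (72) and length trends removed (72; 38 higher, 34 lower) stayed within 1.5 times. Leaving out 1 library gave 15 to 41 genes (6 to 14 higher, 8 to 27 lower). Genotype as the only term pools the DKO libraries of both sets, while Irx3KO is in set 2 alone. In that fit library set and genotype cannot be told apart. The cause of the differences between settings was not tested. Replicate numbers 2 and 4 occur in both groups, and same-numbered libraries had a Pearson's r of -0.158 and -0.437 between their deviations over genes. Differently numbered libraries reached 0.447 (DKO 4 with Irx3KO 2). Deviations from means of 3 libraries are tied to one another, so these values cannot decide whether the numbers mark a shared origin. The labels do not say. A block on replicate number was set over all 18 libraries, so it also joins same-numbered libraries of different genotypes and sets. With that block 41 genes passed, 24 higher and 17 lower, and 27 of them were among the 63. The calls lost included Irx4, Pln, Sfrp1, Plppr1, Slit2, Tnni2 and Lyz2. For the difference between the effects of mutant Irx4, where edgeR called 0, DESeq2 called 11, limma-voom 3, genotype as the only term 2460, the replicate block 1, and leaving out 1 library 0 to 1. The 2460 come from a fit that sets Irx4KO of set 2 against WT of set 1 without the join through both DKO groups. Library set and genotype cannot be told apart in them. Depth limits genes near 1 CPM, such as Atp2b3, Amph and Trpc5.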

Other observations

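By chromosome, 10 of the 600 tested genes of chromosome 13, which carries Irx4, passed in DKO against Irx3KO (1.67%), against 53 of 16007 elsewhere (0.331%). They were Amph, Nrn1, Cap2, Zfp729a, Irx4, Adgrv1, Mef2c, Thbs4, Mrps27 and Elovl7. None of the 40 tested genes nearest to Irx4, 20 on each side, passed, and 12 of the 40 had no overlap between the groups, against 17.4% of all genes tested. The median log2 fold change of the 40 was -0.020. Directly before Irx4, Irx2 (-0.54), Gm20554 (-0.39) and Irx1 (-0.28) were lower in DKO without overlap. Ndufs6 (0.075), directly after it, overlapped. The nearest called genes in tested-gene order were Zfp729a, 21 genes before Irx4, and Adgrv1, 41 genes after it. Gene order comes from GENCODE M21, and the strain of the mutant chromosomes is not given, so a part of linked strain differences in these calls was not tested. On the X chromosome 4 of 626 tested genes passed (0.639%), against 0.379% of all genes. They were Atp2b3, Trpc5, Tsc22d3 and Asb12, and all but Trpc5 were lost with embryo sex as a term.

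Transcripts of the genes that rose had a median length of 3066 nt and those of the genes that fell 4176 nt, against 2645 nt over all genes tested. DKO libraries also had the lower length trend of the compared groups, as given above. With the trend removed 57 of the 63 genes still passed, and with counts rebuilt from TPM 27 did. The part of length in these calls was not tested further.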
